A study of Drosophila melanogaster with 7 samples.

Results

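The cytosolic ribosomal proteins were represented by 47 of the 10376 features of the arrays, which stood for 35 genes. A feature is 1 spotted cDNA clone. A clone was taken when its single gene symbol in the annotation of the array platform had the form used for cytosolic ribosomal proteins. These are symbols that start with *RpL* or *RpS*, and *sta* and *sop*. They take in 4 genes named as -like copies, which were counted with the large subunit. Such a symbol is carried by 93 protein-coding genes of the current annotation; those without a member feature were not analysed here, and 10 features that list such a gene beside another one were left out. The large subunit had 29 features of 22 genes and the small subunit 18 features of 13 genes. The series holds 7 two-colour arrays, and on each the RNA of about 300 mutant embryos was set against that of about 300 controls, both 10 to 12 hours old and collected at the same time. The mutant embryos were homozygous for *lolaORC4*, which hits *lola*, a transcription factor gene, and inactivates isoform K alone, in a w1118 background, with the driver *sca-GAL4* on one copy of the chromosome and the reporter *UAS-tau-eGFP* on the other. Control embryos were w1118 with the same driver and reporter and without the allele. In both, the driver turns on a fluorescent marker in the nervous system, by which the embryos were sorted. Whole embryos were extracted, so that fewer cells of a type and less RNA per cell cannot be told apart. The arrays give ratios and no levels, so the tissue could not be checked against its markers.

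A ribosome joins a small subunit, which reads the mRNA, to a large subunit, which links the amino acids. In most organisms the ribosomal protein genes are transcribed at high rates and in balance, since most of the proteins are needed once per ribosome. In *Drosophila* the loss of 1 copy of many of these genes gives the Minute phenotype of slow growth and short, thin bristles. Several ribosomal proteins of the fly are encoded by a pair of genes, of which 1 is often used mainly in the germ line. Some genes named as -like copies are known from yeast relatives as factors that help to build ribosomes.

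The sign of the values needs to be read with care. Every 2 arrays correlated positively (r over the 10376 features from 0.30 to 0.72 for the 9 pairs with the mutant in the same dye and from 0.06 to 0.63 for the 12 other pairs), so that the deposited log2 ratios run the same way on all 7 arrays. Whether they run as mutant over control or as control over mutant is not stated, and the dyes in the labels (mutant in Cy3 on 3 arrays, in Cy5 on 4) and in the methods differ. Values are given with the sign as deposited, so a positive value may stand for either more or less RNA in the mutant. With all arrays running the same way, the sizes do not depend on the sign. Every order of features given here (lowest, highest, above, below) would turn round with it. The medians of all features were between -0.01 and 0.02 on the 7 arrays.

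Ribosomal protein features did not pass the test more often than all features. With *limma* and Benjamini-Hochberg adjustment over all 10376 features, 2 of the 47 (4.26%) had an adjusted p under 0.05, both negative, while 7.64% of all features did (4.46% positive and 3.18% negative). The 2 were clone RE17836 of *RpS5b* and clone LD41083 of *RpL28*. At an unadjusted p under 0.05 there were 9 of 47 (19.1%), beside 21.9% of all features. Neither share was tested against that of all features. The median of the 47 mean log2 ratios was -0.04, against -0.01 over all features, and the median absolute value was 0.07 against 0.06. Of the means, 36 were negative and 11 positive. The same sign on all 7 arrays was seen for 5 members, or 10.6%, and for 11.6% of all features.

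*RpS5b* stood furthest from 0. The gene encodes a small subunit protein that lies at the side of the ribosome where the mRNA leaves, and it is known as the germ line partner of *RpS5a*. The log2 ratios of its clone RE17836 were -0.67, -0.27, -0.98, -1.22, -0.97, -0.97 and -1.64 on replicates 1 to 7. All 7 were negative, replicate 2 was the closest to 0 and replicate 7 the furthest away. The mean was -0.96 ± 0.43 (SD, n = 7 arrays), a difference of 1.95-fold (95% interval of the log2 ratio -1.26 to -0.66, adjusted p = 0.0024 from *limma*). By absolute size this was rank 55 among the 10376 features. By dye the mean was -0.95 ± 0.27 (SD, n = 3) where Cy3 marked the mutant and -0.97 ± 0.56 (SD, n = 4) where Cy5 did. The next lowest mean of the small subunit was -0.12, and *RpS5b* was the lowest member on every array except replicate 2. Clones of near-identical genes can bind each other's RNA, and no feature of *RpS5a* was among the members.

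Since *RpS5b* is known from the germ line, genes from a textbook list of germ line markers are given beside it. Whole embryos were used, and how far these genes mark germ cells there could not be checked. Of their 8 features 6 had negative means and 2 positive ones. In the *limma* fit 1 passed (12.5%, beside 7.64% of all features) and 4 had an unadjusted p under 0.05 (50%, beside 21.9%), and with a dye term 3 passed, beside 11.9% of all features. The called one was *aub*, a gene of the piRNA pathway, at -0.24 (*limma* adjusted p = 0.013, standard error 0.05). The other negative means were those of *tud* (-0.20, standard error 0.06, adjusted p = 0.068), *osk* (-0.10), *ovo* (-0.08), *stau* (-0.03) and *gcl* (-0.01). The RNA helicase gene *vas*, a defining germ cell marker, was at 0.15 (standard error 0.05, adjusted p = 0.13) and *bam* at 0.13 (standard error 0.04, adjusted p = 0.099). The median of these markers lay between -0.08 and 0.05 on the 7 arrays. Their part in the value of *RpS5b* was not tested.

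The other small subunit proteins were close to 0. The next lowest were *RpS12*, whose protein is known in the fly for its part in cell competition, with clone LD23808 at -0.12 (*limma* adjusted p = 0.14, standard error 0.04), and *RpS29*, with clone RH06643 at -0.09 (standard error 0.04, adjusted p = 0.15). *RpS12* was negative on all 7 arrays, from -0.33 through a median of -0.13 to -0.02. The highest was *RpS26*, whose protein touches the mRNA at its exit, with clone RE01079 at 0.13 (standard error 0.05, adjusted p = 0.12) and values from -0.01 through a median of 0.12 to 0.29. At the decoding centre and head the 4 features of *RpS15* and *RpS18* had means between -0.03 and 0.04. The germ line or testis copies *RpS10a* and *RpS19b* were at -0.00 and 0.04. *RpS30*, made as a fusion with a ubiquitin-like protein, was at -0.01.

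**Figure D1:**
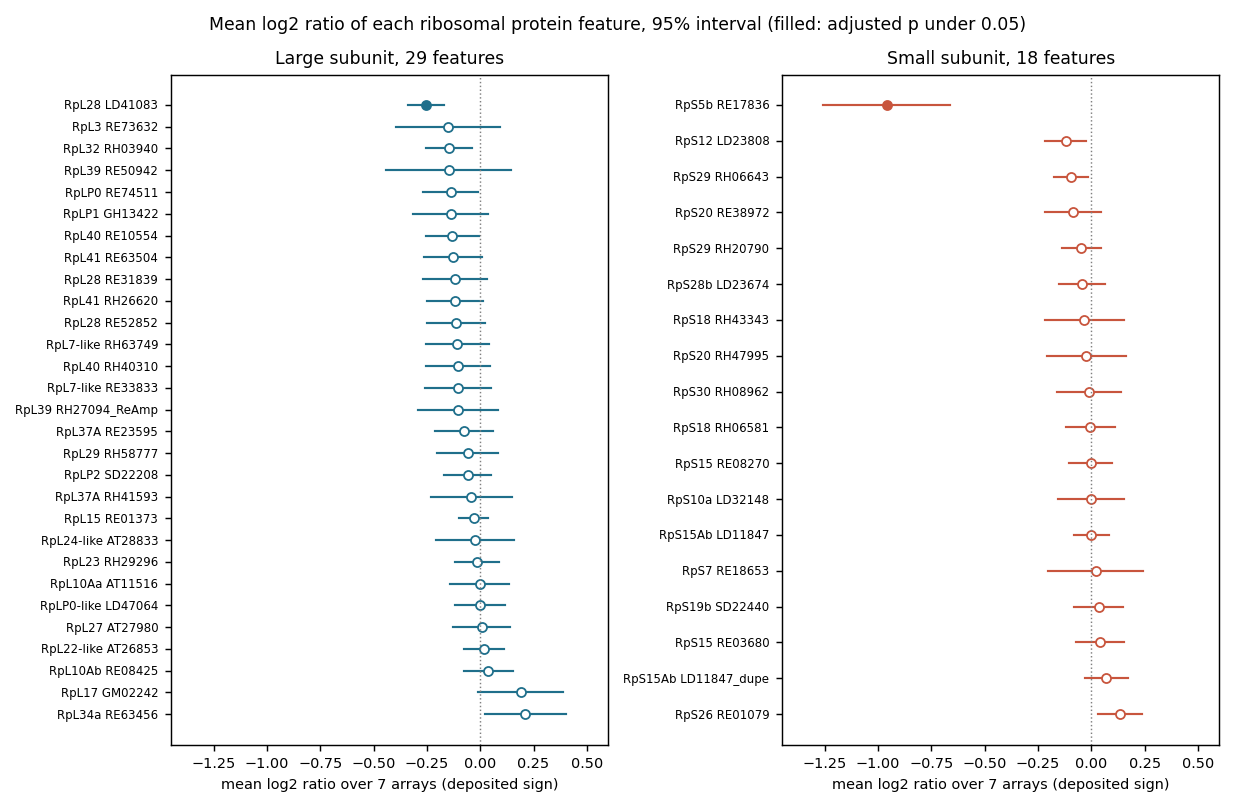
Mean log2 ratio over 7 arrays (x axis, sign as deposited) of the 29 large subunit and 18 small subunit features (rows), with the 95% interval as a line; filled points passed an adjusted p under 0.05. Only *RpS5b* (-0.96) and *RpL28* clone LD41083 (-0.25) are filled, and the other 45 points lie between -0.15 and 0.21.

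Among the large subunit proteins *RpL28* was the single gene with a called feature. Its clone LD41083 had log2 ratios of -0.14, -0.31, -0.21, -0.38, -0.27, -0.20 and -0.26 on replicates 1 to 7. All lay in a narrow negative range, with a mean of -0.25 ± 0.08 (SD, n = 7) or 1.19-fold (adjusted p = 0.0038 from *limma*). The 2 other clones of the gene, RE31839 and RE52852, had means of -0.12 (standard error 0.07, adjusted p = 0.35) and -0.11 (standard error 0.06, adjusted p = 0.32), both from *limma*, and ranged from -0.35 to 0.13 and from -0.34 to 0.13. They differed from each other by at most 0.06 on any array, and LD41083 lay below each of them on 5 of 7 arrays. On replicate 2 both were at 0.13 and LD41083 at -0.31. Across the arrays LD41083 had an r of 0.04 with RE31839 and 0.12 with RE52852, which had an r of 0.99 with each other. With the median of the members of all other genes, r was 0.085 for LD41083, 0.978 for RE31839 and 0.995 for RE52852. Which of the clones reports *RpL28* RNA most closely was not tested. With the 3 clones averaged, *RpL28* was at -0.16 and did not pass (adjusted p = 0.080 from *limma*).

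Below 0 but not past the test were *RpL3*, whose protein reaches to the centre where peptide bonds form, and *RpL32*, long used as the reference gene *rp49* in measurements of fly RNA. *RpL32* clone RH03940 had a mean of -0.15 (standard error 0.05, adjusted p = 0.105 from *limma*), with values from -0.31 through a median of -0.16 to 0.05. *RpL3* clone RE73632 had a mean of -0.15 (standard error 0.11), which came mainly from replicate 2, at -0.90, while the other arrays were between -0.19 and 0.11. The highest means of the subunit were those of *RpL34a* clone RE63456, at 0.21 (standard error 0.09, *limma* adjusted p = 0.18), and of *RpL17* clone GM02242, whose protein lies at the exit of the peptide tunnel, at 0.19 (standard error 0.09, adjusted p = 0.25). On *RpL34a* 5 arrays were positive and 2 negative, from -0.17 to 0.58. Both genes had their highest value on replicate 2, without which the mean of *RpL17* was 0.09. Next to them *RpL10Ab* was at 0.04 (standard error 0.05).

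The proteins of the stalk, which draws elongation factors to the ribosome, had means of -0.14 (*RpLP0*), -0.14 (*RpLP1*) and -0.06 (*RpLP2*), with 0 of 3 features called by *limma* (beside 7.64% of all features) and 1 at an unadjusted p under 0.05 (beside 21.9%). The proteins made as ubiquitin or ubiquitin-like fusions, *RpL40* and *RpS30*, had 3 features with means between -0.13 and -0.01. *RpL41*, which encodes a very short peptide, had 2 clones at -0.13 and -0.12. The 4 genes named as -like copies had 5 features between -0.11 and 0.02. Of these *RpL7-like* was at -0.11 and -0.10, and *RpL24-like*, *RpLP0-like* and *RpL22-like* were at -0.02, 0.00 and 0.02. The paralogs *RpL10Aa* (0.00, standard error 0.06) and *RpL10Ab* (0.04, standard error 0.05) were both close to 0, and their difference was not tested. *RpLP0* (-0.14, standard error 0.06) lay below *RpLP0-like* (0.00, standard error 0.05), a difference that was not tested. Without replicate 2 the means of the pair were -0.09 and -0.03.

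For the 45 features that did not pass, the 95% intervals of the mean log2 ratio lay between -0.44 and 0.40. All 45 were thus inside 0.5 in either direction (1.41-fold), and 30 were inside 0.25 (1.19-fold). The SD between arrays was 0.17 at the median of the members and 0.14 at the median of all features.

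The 2 subunits ran close together. The median of the means was -0.10 for the large and -0.01 for the small subunit. Leaving out single arrays moved the first between -0.11 and -0.05 (-0.05 without replicate 7, -0.06 without replicate 4) and the second between -0.07 (without replicate 2) and 0.02 (without replicate 7). With features averaged by gene the medians were -0.06 and -0.01. Without the -like genes the large subunit had 24 features, with a median of -0.10 and 20 negative means. Array by array the median of the large subunit was -0.11, 0.13, 0.00, -0.19, 0.02, -0.06 and -0.19 on replicates 1 to 7, and that of the small subunit -0.07, 0.17, 0.05, -0.19, 0.08, -0.03 and -0.17. Both were positive on replicates 2, 3 and 5 and negative on the others. By the labels the mutant was in Cy5 on replicates 2, 3 and 5 and in Cy3 on replicates 1, 4 and 6. The sign thus went with the dye on all arrays except replicate 7, which had the mutant in Cy5. The large subunit was below the small one on 7 of 7 arrays, by 0.03 ± 0.02 (SD, n = 7) and by 0.07 at most. This gap was small beside the swing of either subunit between arrays, whose SD was 0.12 and 0.13. Taken as the mean over features in place of the median, the gap was -6e-04, since the mean of the small subunit holds the large values of *RpS5b*. It was described and not tested, because the members were chosen with earlier results of these data known.

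**Figure D2:**
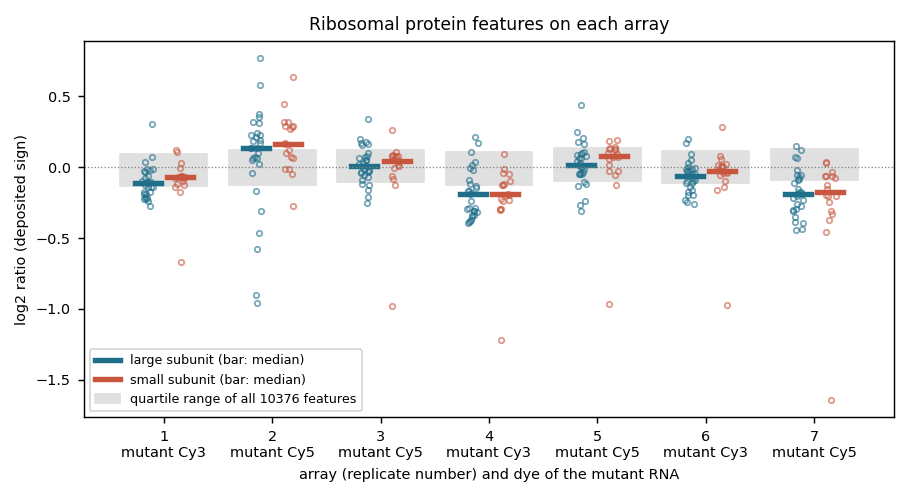
Log2 ratio (y axis, sign as deposited) of each ribosomal protein feature on the 7 arrays (x axis, with the dye of the mutant RNA); bars are the medians of the large and small subunit, and grey boxes span the lower to the upper quartile of all 10376 features. Both bars are above 0 on replicates 2, 3 and 5 and lowest on replicates 4 and 7 (-0.19 and -0.19 for the large subunit), and the single points below the rest on all arrays except replicate 2 are *RpS5b*.

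The members varied together from array to array. On replicate 2, 36 of the 47 were positive, with a median of 0.13. On replicates 1, 4 and 7, 41 of 47 were negative each time, with medians of -0.10, -0.19 and -0.19. Replicates 3 and 5 had 28 positive members each and replicate 6 had 12. Over the same arrays the share of positive values among all features stayed between 47.4% and 54.2%. The correlation across the 7 arrays between 2 members had a median r of 0.71 over 1081 pairs, against 0.01 over all pairs of features with a single gene. Within the small subunit the median r was 0.81, within the large subunit 0.36, and between a large and a small subunit feature 0.74. These are descriptions over 7 arrays, and all features of an array share its labelling, hybridization and normalization.

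**Figure D3:**
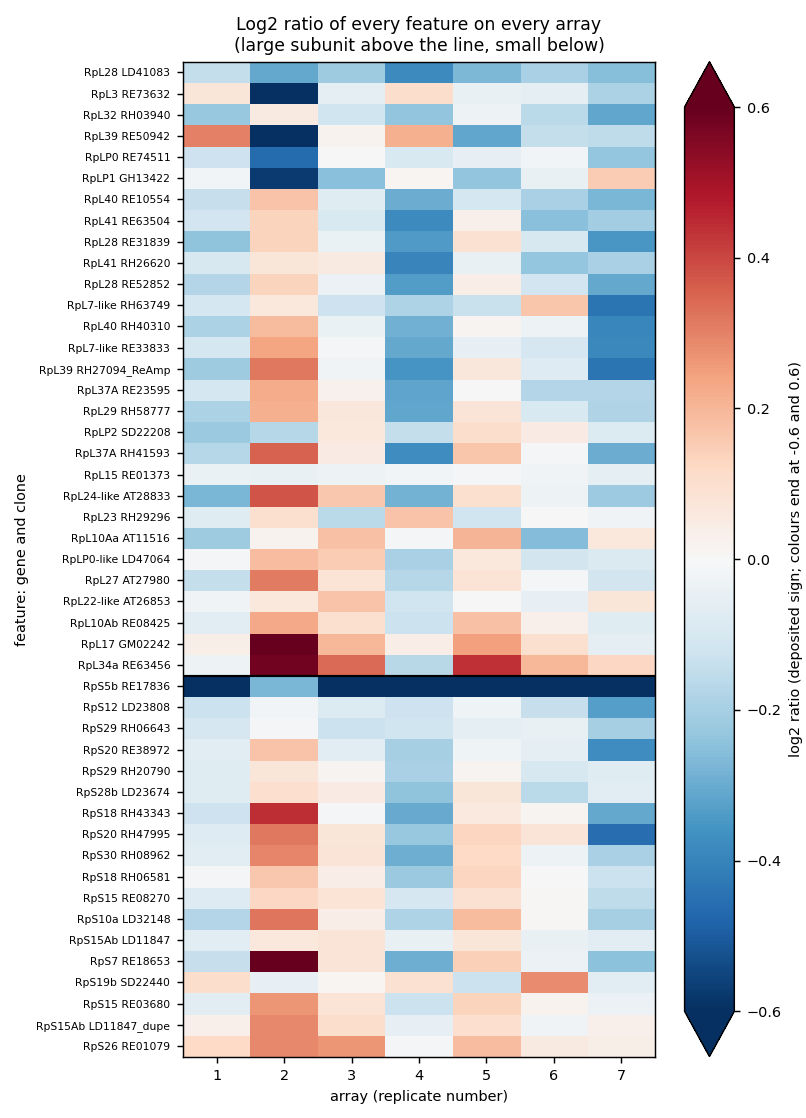
Log2 ratio (colour, sign as deposited, ends at -0.6 and 0.6) of all 47 features (rows, gene and clone) on the 7 arrays (columns), large subunit above the line. Most rows are red on replicate 2 and blue on replicates 4 and 7. On replicate 2, 11 rows are negative. The lowest of them are *RpL39* clone RE50942, *RpL3*, *RpLP1* and *RpLP0*, followed by *RpL28* clone LD41083 (-0.31) and *RpS5b* (-0.27).

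Set against the median of the members of all other genes, 32 features had an r above 0.8, 9 lay between 0 and 0.8, and 6 had a negative r. The negative ones were *RpLP1* (-0.94), *RpL39* clone RE50942 (-0.72), *RpL3* (-0.65), *RpS19b* (-0.30), *RpLP0* (-0.29) and *RpL23* (-0.26). On replicate 2, where most members were positive, *RpLP1* was at -0.57, *RpL3* at -0.90, *RpLP0* at -0.46 and *RpL39* clone RE50942 at -0.96. *RpL39*, whose small protein lines the peptide tunnel, showed both patterns: its other clone, RH27094_ReAmp, was at 0.32 on that array and had an r of 0.98 with the other members. On the 7 arrays the 2 clones had an r of -0.77 with each other. The means of RE50942 and RH27094_ReAmp were -0.15 (standard error 0.13) and -0.10 (standard error 0.08), and neither passed the test. Without replicate 2 they were -0.01 and -0.17, so that their order turned with that array. Low values on replicate 2 were not limited to the members. Of the initiation factors, *eIF3c* was at -1.55 and *pAbp* at -1.03 on that array, where the median of their list was 0.02. *RpS5b* followed the other members between arrays only in part (r of 0.76). It was closest to 0 on the array where most members were positive and furthest from 0 on replicate 7.

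**Figure D4:**
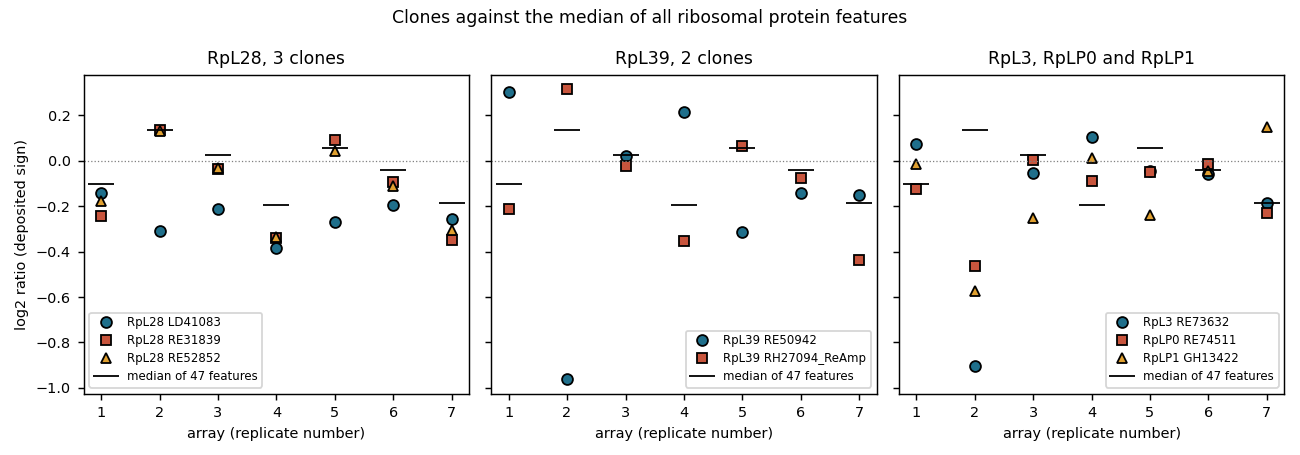
Log2 ratio (y axis, sign as deposited) on the 7 arrays (x axis) of the 3 *RpL28* clones, the 2 *RpL39* clones, and the clones of *RpL3*, *RpLP0* and *RpLP1*; dashes are the median of all 47 features. *RpL28* clones RE31839 and RE52852 stay near the dashes while LD41083 is negative throughout, and on replicate 2 *RpL39* clone RE50942 (-0.96) and *RpL3* (-0.90) lie far below the dash at 0.13.

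In all, 11 genes had 2 or more member features, giving 13 pairs of features of the same gene. Their means differed by 0.01 to 0.14, with a median of 0.04. The widest gaps after *RpL28* were those of *RpS15Ab* (0.07), *RpS20* (0.06), *RpS29* (0.05) and *RpS15* (0.04). Of the pairs 7 had an r above 0.8 across the arrays, and the single negative one was *RpL39*. The *RpS15Ab* pair is 1 clone spotted in duplicate, with means of -0.00 and 0.07. Its spots differed by 0.22 on replicate 2 and by a median of 0.03. Over all 10 clones of the arrays with such a duplicate spot, the median difference between the 2 spots on a single array was 0.07.

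No ribosomal protein had a dye effect that passed the test. A dye coefficient was fitted, positive where the values were higher on arrays with a Cy5-labelled mutant than with a Cy3-labelled one. Reading it as a dye effect rests on the assumption that the ratios run the same way on all 7 arrays. The coefficient is given on that basis. It passed for 0 of the 47 members (*limma* adjusted p under 0.05; 5 at an unadjusted p under 0.05), against 10.6% of all features (27.1% unadjusted). The coefficients were positive for 36 of the 47, with a median of 0.07 against 0.00 over all features. The 5 of largest size were those of *RpL39* clone RE50942 (-0.24), *RpL34a* (0.18), *RpL3* (-0.17), *RpS7* (0.15) and *RpL24-like* (0.15). Without replicate 7, whose members were negative although its mutant RNA carried Cy5, 3 features had a dye coefficient that passed: *RpL34a* (0.23), *RpL24-like* (0.20) and *RpL29* (0.16), beside 14.6% of all features. With the coefficient in the model *RpS5b* (-0.96, adjusted p = 0.0053 from *limma*) and *RpL28* clone LD41083 (-0.25, adjusted p = 0.0045) were the 2 members that passed, beside 11.9% of all features.

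The other lists of translation genes had medians from -0.02 to 0.09. The 78 features of mitochondrial ribosomal proteins, which serve the separate ribosomes of that organelle, had a median mean log2 ratio of 0.09, and 70 of the 78 means were positive. Of the 78 features 5 passed, all positive (6.41%, beside 7.64% of all features), and 31 had an unadjusted p under 0.05 (39.7%, beside 21.9%). The share called depended on the fit. It was 17.9% with a dye term (14 features, beside 11.9% of all features), 14.1% with array weights (11, beside 8.91%) and 11.5% with quantile normalization (9, beside 8.29%). It was 1.28% without replicate 3 or without replicate 5 (1 feature, beside 4.3% and 4.25% of all features) and 2.56% without replicate 6 or without replicate 7 (2, beside 5.92% and 4.76%). With all arrays the 5 were *mRpL4* (0.25, standard error 0.06, adjusted p = 0.026 from *limma*), both clones of *mRpL14* (0.23 and 0.22), *mRpL32* (0.22) and *mRpL46* (0.15). Like the cytosolic members they varied together between arrays, with a median r of 0.68 between 2 features. Their median was the highest on replicates 2 and 5 (0.19 and 0.21) and the lowest on replicate 4 (-0.05), and it was above that of the cytosolic members on 7 of 7 arrays. The 28 features of ribosome biogenesis and nucleolar genes had a median of 0.07, with 23 positive means. At an adjusted p under 0.05, 0 were called (beside 7.64% of all features), and 7 had an unadjusted p under 0.05 (25%, beside 21.9%). The highest were *Surf6* (0.17, adjusted p = 0.096) and a clone of the helicase gene *pit* (0.17, adjusted p = 0.052). The 27 features of initiation factors had a median of -0.02 and the 3 of elongation factors -0.01. The 6 of RNA polymerases I and III, which make ribosomal RNA and transfer RNA, had a median of 0.07. In each of these lists 0 features were called (beside 7.64% of all features). At an unadjusted p under 0.05 there were 3 features of initiation factors (11.1%), 0 of elongation factors and 2 of the polymerases (33.3%), beside 21.9% of all features. In lists this short, 0 calls says little about the genes.

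**Figure D5:**
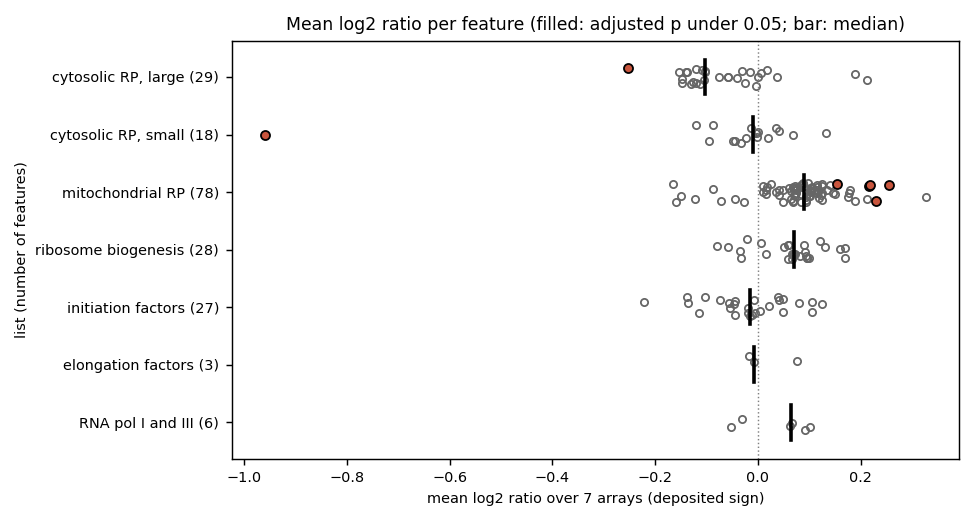
Mean log2 ratio over 7 arrays (x axis, sign as deposited) of each feature of 7 lists of translation genes (rows, number of features in brackets); the bar is the median of a list and filled points passed an adjusted p under 0.05. The cytosolic lists have medians of -0.10 and -0.01 and the mitochondrial list 0.09, with 5 filled points, all positive.

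The calls were stable to most choices. Without replicate 2 there were 4 called members in place of 2, *RpL32* (-0.18, adjusted p = 0.045 from *limma*) and *RpL40* clone RE10554 (-0.18, adjusted p = 0.041) being added, beside 7.81% of all features. With all arrays *RpL40* clone RE10554 was at -0.13 (standard error 0.06, adjusted p = 0.21), positive on replicate 2 and negative on the other 6. Without any other single array the same 2 features passed.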

How the data were processed

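The deposited values are 1 log2 ratio per feature and array. Per the methods of the study, the authors read GenePix spot intensities with *limma* (version not given in the sources used here), subtracted no background, normalized each array by print-tip loess and the arrays to each other by scale, and left out failed spots. All 10376 features were kept, without a filter on low values. Of these 8598 had 1 gene symbol, 517 several and 1261 none. Symbols came from the platform annotation, and all 47 members carry the symbol that the Release 6 plus ISO1 MT gene table gives.

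Each feature's mean over the 7 arrays was tested against 0 with *limma* 3.58.1 in R 4.3.3 (lmFit, eBayes, Benjamini-Hochberg over all features). The procedure was tried on simulated data with independent noise for each feature. That differs from the arrays, where members varied together. Members and gene lists were chosen with earlier results of these data known, so no list was tested. Named features were the called members, the 3 highest and lowest means of each subunit, paralogs and -like copies, the genes whose clones differed most, the largest dye coefficients, up to 2 per structural group, and called features of other lists. Germ line markers and genes of ribosome biogenesis came from textbook lists. *RpL40* clone RE10554, *RpL23*, *RpL29*, *RpL41*, *RpS10a*, *RpS19b*, *Surf6*, *pit*, *mRpL46*, *RpL15* and the germ line markers other than *aub* were named after their values were seen. So were *eIF3c* and *pAbp*. Alternatives were centring, quantile normalization, a dye coefficient, array weights, robust empirical Bayes, other thresholds and adjustments, features averaged by gene, features with 1 gene alone, and leaving out each array. The number of arrays limits the precision.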

Additional observations from a re-analysis of the deposited data

Results flagged for a closer look

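A single array lay far from the other 6 for 3 of the 47 members (6.4%, beside 6.3% of all features), by Dixon's ratio with a critical value of 0.568, which chance passes in about 1 of 20 groups. *RpL3* clone RE73632 was at -0.90 on replicate 2, against -0.19 to 0.11 on the others. *RpL17* clone GM02242 was at 0.77 on the same array, against -0.06 to 0.25. *RpS12* clone LD23808 was at -0.33 on replicate 7, against -0.14 to -0.02.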

How the results depend on the processing

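*RpS5b* kept its sign and passed under all 16 alternatives run on it (-1.07 to -0.85, adjusted p up to 0.024 from *limma*). *RpL28* clone LD41083 did so under 15 of 16 (-0.27 to -0.16), the exception being the average of its gene's features (-0.16, adjusted p = 0.080 from *limma*). With features averaged by gene, 1 ribosomal protein gene was called, beside 7.66% of all averaged features. Leaving out each array gave 2 to 4 called members, 0 to 3 with a dye coefficient, 441 to 810 called features in all, 481 to 1510 with a dye coefficient, 1 to 6 mitochondrial ribosomal proteins and 0 to 1 ribosome biogenesis features. The low counts were 446, 441 and 494 in all without replicates 3, 5 and 7. A model with a dye term called 1234 features in all, 14 mitochondrial, 3 germ line, 2 biogenesis and 1 initiation factor features. Array weights gave 11 mitochondrial and 1 biogenesis feature, beside 925 features in all (8.91%). Quantile normalization gave 9 mitochondrial ones, beside 860 in all (8.29%). At an adjusted p under 0.01 there were 313 calls in all and 419 for the dye, and under Benjamini-Yekutieli adjustment 232 and 284, both with 0 mitochondrial and 0 germ line features. The gap between the subunits was -6e-04 with means in place of medians and -0.04 to -0.03 without single arrays. Of 448 comparisons of named features 30 changed sign, none with a call on either side, all for 8 features with means within 0.025 of 0. Mutant and control of a pair enter each value as their ratio, so the test against 0 is the paired one and no further block was fitted.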

Other observations

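The clone RE01373 of *RpL15*, singled out after its values were seen, hardly varied. Its log2 ratios were between -0.05 and -0.01 on the 7 arrays, with a mean of -0.03 ± 0.01 (SD, n = 7), and 0.01% of all features had a smaller SD. It was negative on 7 of 7 arrays and did not pass the test (adjusted p = 0.62 from *limma*).

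The clones came from several cDNA libraries, as their names show. The 18 member clones of the RE series had a median mean of -0.10 and the 14 of the RH series -0.05, beside 0.02 and 0.02 for all clones of those series. The 7 clones of the LD series had a median of 0.00 and the 4 of the AT series 0.00, beside -0.02 and -0.01 for all clones of those series.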
